A study of Mus musculus with 3 samples.

Results

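Apelin signalling uses 2 secreted peptides and 1 receptor, and all 3 genes of it were followed here in single cells of the gastrulating mouse embryo. Apela codes for the peptide ELABELA (also called Toddler), Apln for apelin, and Aplnr for the apelin receptor (APJ), a receptor on the cell surface that couples to G proteins. The genes were taken by symbol from the feature list, which holds 32285 genes, so the group is 3 of 32285, and all 3 were measured in every library. The study holds 3 libraries of single cells from normal embryos of the ARC mouse strain, 1 for each stage: embryonic day (E) 7.0, E7.25 and the posterior part of E7.5. The first pair are labelled as embryos with no region named, so the stage and the region sampled cannot be told apart at E7.5. Embryos were dissociated with trypsin and run on 1 droplet channel per sample, and how many embryos were pooled is not given in the sources used here.

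Both peptides bind the same receptor. In the fish embryo the ELABELA peptide is known for its part in the movement of mesoderm and endoderm cells during gastrulation, and the receptor is known for its role in heart and vessel development. During mouse gastrulation, cells of the epiblast (the layer that forms the embryo proper) enter the primitive streak, switch on the T-box gene T and then Mesp1, and leave as mesoderm, while cells of the anterior streak form definitive endoderm, the node and the notochord.

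The coding sequences are shown because the peptides are short and the active part of each lies at its end. By GENCODE M21 on GRCm38, Apela (ENSMUSG00000079042) lies on chr8:65028417-65037336 on the minus strand with 3 or 4 exons, and Apln (ENSMUSG00000037010) lies on chrX:48025146-48034853 on the minus strand with 3 exons. Aplnr (ENSMUSG00000044338) lies on chr2:85136225-85139923 on the plus strand as 1 exon. The build that the libraries were counted on is not given in the sources used here, and the genes were matched to this annotation by gene ID. In the lines below, capitals mark the codons of the last 11 residues of the Apela product, known as ELA-11, and of the last 13 residues of the Apln product, known as apelin-13.
Apela coding sequence (165 bases): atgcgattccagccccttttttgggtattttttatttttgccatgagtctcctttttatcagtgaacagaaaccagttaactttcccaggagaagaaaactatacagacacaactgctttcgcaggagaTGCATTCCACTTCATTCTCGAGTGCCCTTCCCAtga
Apln coding sequence (234 bases): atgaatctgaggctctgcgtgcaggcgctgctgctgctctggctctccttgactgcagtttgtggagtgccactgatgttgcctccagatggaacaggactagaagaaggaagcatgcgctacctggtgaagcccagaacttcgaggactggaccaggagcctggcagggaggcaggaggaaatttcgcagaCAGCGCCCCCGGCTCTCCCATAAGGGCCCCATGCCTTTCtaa
The annotated Apela gene is overlapped on the same strand by Gm45886, a processed transcript, so UMIs from the shared stretch could belong to either. The RefSeq promoter table (GRCm38.p6) holds 2 of the 3 genes, Apela and Apln. The 250 bases before the Apela start, chr8:65037337-65037586 on the minus strand, are shown with 2 copies of ATGCAAA in capitals, 1 on each strand, which is the core of the octamer that POU factors such as the product of Pou5f1 bind.
Apela upstream sequence: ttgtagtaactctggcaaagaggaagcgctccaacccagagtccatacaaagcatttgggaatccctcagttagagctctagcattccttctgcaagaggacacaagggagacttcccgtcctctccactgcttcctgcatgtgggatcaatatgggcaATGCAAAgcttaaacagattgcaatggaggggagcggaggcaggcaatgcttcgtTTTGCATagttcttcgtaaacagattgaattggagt
That motif was chosen after the sequence was seen. Of 32851 windows of that length in the table, 4.12% hold ATGCAAA or its reverse complement TTTGCAT at least once and 0.240% hold it at least 2 times; the Apln window holds none. The T-box half-site AGGTGTG, searched on both strands, is in 5.10% of the windows and in neither of these.

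After filtering for at least 1000 detected genes and at most 10% mitochondrial UMIs (unique molecular identifiers, each standing for 1 captured RNA molecule) and removal of predicted doublets, 7830 cells were kept at E7.0, 5001 at E7.25 and another 7868 at E7.5. Their median depth was 11215, 8190 and 9066.5 UMIs per cell. Each pair of libraries shared 7 to 18 cell barcodes among the kept cells. With 1 library per stage there is no test: levels are given as UMIs of a gene per 1000000 UMIs of the same cells (CPM) with 95% intervals that cover counting error only, and shares of cells are given after each cell of at least 5000 UMIs was thinned to 5000. Clusters were made without the 3 genes, each name below is a likeness from marker genes, and several clusters came almost wholly from 1 library, so such a cluster may be that library and not a cell type. In the whole libraries all 3 genes were low. Apela stood at 21.3 CPM at E7.0 (20.5 to 22.2), 19.1 at E7.25 (17.8 to 20.4), with 31.1 at E7.5 (29.9 to 32.4). Apln stood at 17.6 (16.9 to 18.5), 23.8 (22.4 to 25.3) and 32.3 CPM (31.0 to 33.5). Aplnr stood at 24.96 (24.0 to 25.9), 25.1 (23.6 to 26.6) and 31.8 CPM (30.5 to 33.0). No gene of the 3 differed by 2-fold between whole libraries. The widest gap was Apln at E7.5 against E7.0, 1.83-fold higher (log2 0.87, 0.78 to 0.96). Among genes at 20 CPM or more in at least 1 library, 2.79% were at least 2-fold higher and 1.52% lower at E7.25 than at E7.0, 1.01% and 3.13% at E7.5 than at E7.25, and 0.588% and 0.986% at E7.5 than at E7.0. Differences between kinds of cells, given next, were larger than these.

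**Figure D1:**
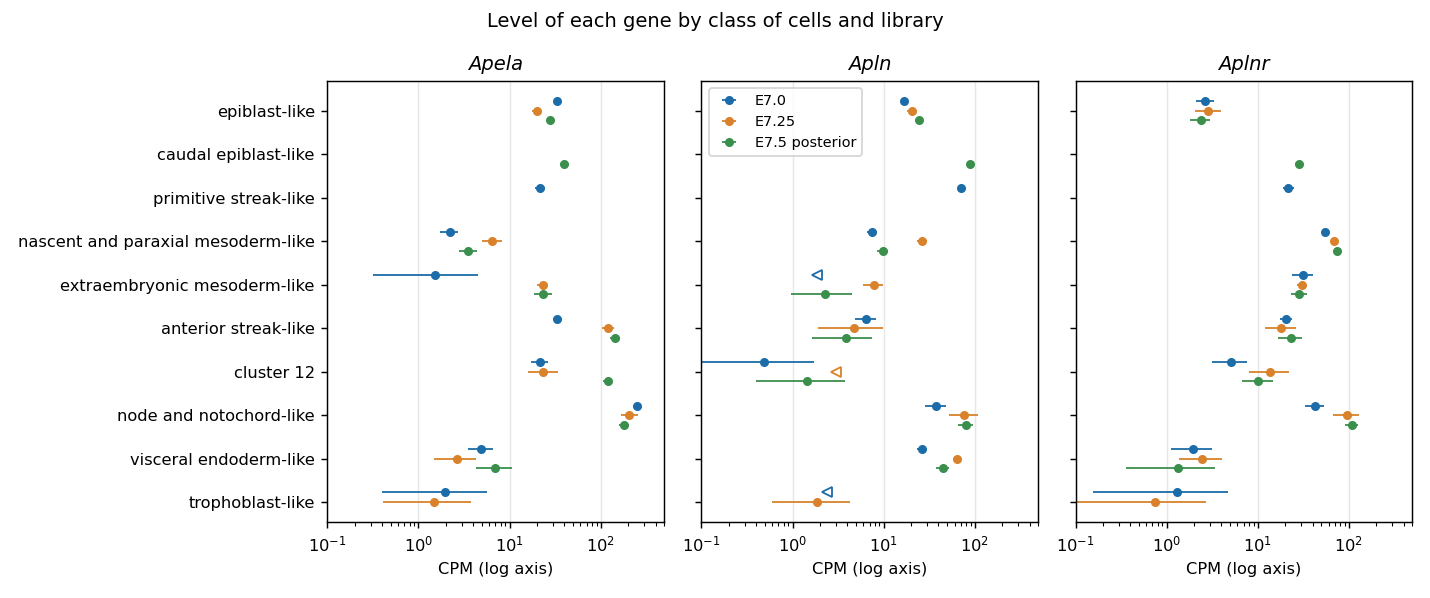
Level of Apela, Apln and Aplnr in CPM (log axis) in the cells of each class (rows) and library (colours); points are summed UMIs, lines are exact 95% Poisson intervals, and open triangles mark the upper limit where no UMI was found. Apela peaks in node and notochord-like cells at 247, 207 and 181 CPM. Apln peaks in caudal epiblast-like, primitive streak-like, node-like and, at E7.25, visceral endoderm-like cells. Aplnr peaks in mesoderm-like and node-like cells.

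Of the classes, node and notochord-like cells held the most Apela. They carry Noto and Chrd, genes of the node and notochord, with Foxj1 and other genes of cilia. The Apela level there was 247 CPM at E7.0 (224 to 273, 158 cells), 207 at E7.25 (166 to 255, 68 cells), then 181 at E7.5 (159 to 205, 194 cells). At E7.0 the level was uneven: 36 of the 158 cells, those with 4 or more Apela UMIs, held 301 of the 400 UMIs, and the other 122 cells held 85.2 CPM (69.2 to 104). Those 36 cells had less T than the rest of the class (143 against 695 CPM) and more of the epiblast gene Utf1 (317 against 83.5). At resolution 2 a definitive endoderm-like cluster reached 220 CPM at E7.5, against 195 (172 to 221) in the node-like cluster, so the order of these 2 at E7.5 depends on the clustering. After thinning, a UMI of Apela was found in 50%, 37.5% and 41.3% of these cells. The cells make up 1.36% to 2.47% of each library and hold 9.8% to 17.7% of its Apela UMIs. Noto, a transcription factor gene of the node, gave a like contrast with no clustering. Of cells with a Noto UMI, 34.0% at E7.0 held Apela, 22.7% at E7.25 (5 of 22 cells), with 29.3% at E7.5. The shares were 6.43%, 6.73% and 9.70% of the cells without. Noto is also a marker that named the node-like class, so this is not separate support. Among cells with Noto at E7.0, Apela was 104 CPM with 1 Noto UMI, 82.7 with 2 to 3 and 61.2 (14 UMIs) with 4 or more. Node-like cells were high in every library and the intervals of neighbouring stages overlapped, while E7.5 lay below E7.0. Most of the E7.0 UMIs came from the 36 cells with less T.

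Anterior streak and endoderm formed another site of Apela, and its level there differed between libraries. In anterior streak-like cells, cluster 9, with Cer1, Sox17, Hhex and Gsc as leading genes, Apela was 33.4 CPM at E7.0 (29.8 to 37.4, 729 cells), 120 at E7.25 (103 to 139, 172 cells), then 144 at E7.5 (128 to 161, 215 cells). This is a log2 ratio of 1.85 (1.57 to 2.12) for E7.25 and 2.11 (1.87 to 2.34) for E7.5 over E7.0, where 4.8% and 2.33% of genes were at least 2-fold higher. At a finer clustering resolution of 2 the difference was gone from the anterior streak-like cells, at 31.4, 32.3 and 28.5 CPM, and sat in a separate definitive endoderm-like cluster, with Trh, Sox17, Cer1 and Kitl among its leading genes. That cluster had 18 cells at E7.0, 113 at E7.25, then 129 at E7.5, and held Apela at 164 (140 to 191) and 220 CPM (195 to 247) in the last pair. Of the cells of cluster 9, 2.47% at E7.0 (18 of 729), 65.1% at E7.25 (112 of 172) and 60% at E7.5 (129 of 215) lay in it. Those 18 cells of E7.0 held Apela at 203 CPM (152 to 267).

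Sox17, a transcription factor gene of the endoderm, was used to bin all cells of a library by its own counts, visceral endoderm-like cells included, whose larger cluster 3 held Sox17 at 49.4 to 74.6 CPM. At E7.5, Apela was 25.6 CPM in cells with no Sox17 UMI, 31.95 with 1, 109 with 2 to 3 and 178 with 4 or more. At E7.0 the same bins held 21.6, 11.2, 17.4 and 28.1 CPM. At E7.25 they held 16.5, 33.4, 44.6 and 58.9 CPM. The Apela level was thus higher in each further Sox17 bin at E7.25 and E7.5, and not at E7.0, where the cells with 1 Sox17 UMI were lowest. Cluster 12 lies close to these cells, with Fgfbp1, Krt19, Pga5, Spink1 and Sox17 among its genes. It carries 9 markers of definitive endoderm and gut among its top 100 genes. None of these is among its very first genes, which include Srgn, a marker of parietal endoderm, so it is kept by number. Its Apela level was 21.6 CPM at E7.0 (17.4 to 26.6), 23.5 at E7.25 (15.8 to 33.8), against 120 at E7.5 (107 to 134). E7.5 was log2 2.35 (1.80 to 2.95) above E7.25, where 2.26% of genes were as much higher. Visceral endoderm-like cells, which surround the embryo and express Ttr, were low in Apela at 4.87, 2.62 and 6.96 CPM. Cluster 12 carried Ttr too, at 1405, 2884 and 960 CPM, so cells with Ttr were not all low in Apela.

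The epiblast-like cells held Apela at a middle level, spread unevenly. They came from a different cluster in each library (2, 4 and 1), with 33.0 CPM at E7.0 (31.1 to 35.1, 2147 cells), 19.8 at E7.25 (17.5 to 22.4, 1494 cells), then 27.9 at E7.5 (26.0 to 29.99, 2526 cells). After thinning, 9.87%, 7.79% and 9.47% of them held a UMI. At E7.0, 77 of the 2147 cells held 4 or more Apela UMIs, up to 35 in 1 cell, and these cells held 625 of the 1058 Apela UMIs of the class. They were 46 of 2526 cells at E7.5 and 9 of 1494 at E7.25. Caudal epiblast-like cells of E7.5 held more Apela than the epiblast-like cells of that library, at 39.2 CPM (36.1 to 42.5, 1438 cells).

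The 77 cells at E7.0 differed from the rest of the epiblast-like cells in other genes too, in a comparison chosen after the counts were seen and so given with no test. Ranked by the ratio of CPM + 10 among genes with 30 UMIs or more, the first 4 upward were Foxj1 (58.5 against 4.13 CPM), the master gene of motile cilia, Calca (96.4 against 13.4), Trh (719 against 158), the gene for thyrotropin-releasing hormone, and Chrd (32.6 against 3.18), which codes for the BMP antagonist chordin. Foxa2, a gene of the anterior streak and node, was at 38.5 against 7.79 CPM. On the same scale the lowest was Id1, a direct target of BMP signalling, at 10.6 CPM (6.08 to 17.3) against 92.2 (88.9 to 95.7). At E7.5 the 46 cells showed the same pair at the ends: Trh was 455 CPM against 65.2, and Id1 was 7.16 CPM (1.95 to 18.3) against 172 (167 to 177). Epiblast-like cells with many Apela UMIs thus had low Id1 and high Trh in both libraries. Foxj1 at E7.5 was 10.7 CPM (6 UMIs) against 1.73. The cells with many Apela UMIs were deeper, with a median of 14363 UMIs against 11526 at E7.0 and 11130.5 against 9702.5 at E7.5, and the part of depth in these differences was not tested.

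Extraembryonic mesoderm-like cells, of clusters 8 and 17, gave the largest log2 ratio of Apela between libraries among the classes. Only 3 Apela UMIs were found in the 149 such cells at E7.0 (1.52 CPM, 0.314 to 4.44), against 23.1 CPM at E7.25 (20.02 to 26.6, 749 cells), then 23.4 at E7.5 (18.6 to 29.0, 343 cells). The log2 ratio of E7.25 to E7.0 was 3.93, with a counting interval of 2.36 to 6.22, where 3.48% of genes were at least 2-fold higher. Cluster 17 is 104 very deep cells found only at E7.25, and without it the level there was 21.9 CPM. The class was not alike in makeup across libraries, as the separate clusters show. At resolution 2 a cluster led by Pmp22, Ahnak, Hand1 and Spin2c held Apela at 33.2 CPM at E7.25 (104 UMIs), with 25.5 at E7.5, and E7.0 had 13 cells of it. The very deep cells of E7.25 formed another cluster, at 25.2 CPM (75 UMIs), and 722 further cells of that library held 3.68 CPM (23 UMIs). The extraembryonic mesoderm-like cells of E7.0, led by Kdr, Etv2 and Myl7, held 0.54 CPM (0.17 to 1.25, 709 cells), and the haemato-endothelial-like cells of E7.25, with Tal1, Lmo2 and Runx1, held 2.23 CPM (0.27 to 8.04, 106 cells). Nascent and paraxial mesoderm-like cells, which carry Mesp1, Lefty2 and Tbx6, held 2.20, 6.40 and 3.53 CPM. They came mostly from cluster 0 at E7.0, from clusters 6 and 13 at E7.25 and from clusters 7 and 6 at E7.5. At E7.25, 61 of their 65 Apela UMIs lay in cluster 13, at 13.5 CPM (10.3 to 17.3), against 0.81 in cluster 6, which held 2.33 at E7.5. Trophoblast-like cells held 1.94 and 1.48 CPM at E7.0 and E7.25, from 3 and 4 UMIs. Levels of a few CPM may include free RNA, whose part was not tested.

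Apln was highest in streak-like cells at E7.0, in node-like and visceral endoderm-like cells at E7.25 and in caudal epiblast-like cells at E7.5. At E7.0 its highest class was the primitive streak-like cells of cluster 11, with Eomes, Fgf8, Mixl1 and Wnt3, at 70.5 CPM (65.4 to 75.9, 660 cells), where 28.7% of thinned cells held a UMI. At E7.5 it was the caudal epiblast-like cells of cluster 5, with Nkx1-2, Cdx1, Cdx2 and T, at 89.2 CPM (84.5 to 94.0, 1438 cells) and 32.6% of thinned cells. These 2 classes held 37.7% and 53.7% of the Apln UMIs of their libraries, from 8.43% and 18.3% of the cells. At E7.25 neither class reached 50 cells, and cluster 13, which carries T, Tbx6 and Hes7 and came almost only from that library, held 54.3 CPM (47.7 to 61.5, 509 cells). Cluster 13 carried as many markers of the primitive streak as of paraxial mesoderm. It held 246 of the 260 Apln UMIs of the paraxial mesoderm-like class at E7.25, while cluster 6, the other main part of that class, held 1.83 CPM. Nkx1-2, a gene of the caudal epiblast, gave the same direction in all libraries with no clustering: 27.4%, 20.6% and 29.1% of cells with an Nkx1-2 UMI held Apln, against 7.47%, 9.27% and 10.9% of those without.

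Apln was highest in the cells with the most T. At E7.5, Apln was 19.1 CPM in cells with no T UMI, 21.9 with 1, 36.7 with 2 to 3 and 68.5 with 4 or more. At E7.0 the bins held 10.9, 15.4, 21.04 and 42.1 CPM, and at E7.25 they held 19.8, 17.9, 23.3 and 46.2. Cells with many Apln UMIs also held less Id1 than the rest of their class: 48.7 CPM (35.9 to 64.6) against 146 (140 to 153) in the 62 caudal epiblast-like cells with 4 or more at E7.5, and 56.3 (44.7 to 70.0) against 104 (97.7 to 112) in the 39 primitive streak-like cells at E7.0. In the first of these Mesp1 was 77.1 against 187 CPM and T was 717 against 530. In the streak-like cells of E7.0 Mesp1 went the other way, at 720 against 586 CPM, and T was 512 against 261. The 62 cells had a median of 13241.5 UMIs against 9509. The 39 cells at E7.0 were far deeper than the rest, with a median of 34892 UMIs against 10892, and the part of that was not tested.

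Visceral endoderm-like cells were the other home of Apln, apart from the streak. They held 26.4 CPM at E7.0 (23.0 to 30.2, 712 cells), 63.4 at E7.25 (57.3 to 70.1, 744 cells), then 44.4 at E7.5 (37.2 to 52.6, 364 cells), so the 3 intervals did not overlap. The E7.25 level was log2 1.26 (1.02 to 1.51) above E7.0, where 1.43% of genes were at least 2-fold higher. At E7.25 these cells alone held 36.6% of the Apln UMIs. Cells with Ttr, a marker of visceral endoderm, held Apln in 17.2% of cases at E7.25 against 7.18% of cells without it, and in 9.17% against 7.40% at E7.0. At E7.5 the shares were 13.1% and 12.8%. Cells with Ttr are not only visceral endoderm-like, since cluster 12 also carries Ttr. Node and notochord-like cells held Apln at 37.1, 76.0 and 79.9 CPM. Cells of anterior streak and endoderm had little: 6.40, 4.72 and 3.82 CPM in cluster 9, and 2, 0 and 4 UMIs in cluster 12. Cer1, a gene of anterior endoderm, marked the gap, with Apln in 1.50%, 2.10% and 1.96% of Cer1 cells against 8.31%, 10.2% and 13.4% of the others.

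The 2 ligands were thus found in partly separate cells. Apela without much Apln lay in anterior streak and endoderm, and Apln without much Apela in visceral endoderm. Both lay in node, epiblast, caudal epiblast and the primitive streak-like cells of E7.0, which held 21.6 CPM of Apela and 70.5 of Apln. Epiblast-like cells held Apln at 16.8 (15.4 to 18.3), 20.5 (18.1 to 23.1) and 24.4 CPM (22.5 to 26.3) in order of stage. Within single cells they met more often than independence gives. The number of thinned cells with both was 79 at E7.0, 47 at E7.25, then 155 at E7.5, which is 2.09 (1.65 to 2.60), 1.57 (1.16 to 2.09) and 1.71 (1.45 to 1.999) times the number expected if the 2 were independent. Among all genes in 1% or more of thinned cells, 1.4%, 1.18% and 0.698% met Apela at 2 times the expected number or more. Apln reached that mark only at E7.0. Of these genes, 98.8%, 96.0% and 98.6% had a lower ratio with Apela than Apln did. Against an expectation summed within clusters the ratios were 1.52, 1.82 and 1.30. Of the cells with both at E7.5, 80 were caudal epiblast-like, 41 epiblast-like and 26 node-like. In epiblast-like cells alone the ratio was 2.29, 1.97 and 1.64.

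The receptor was highest in mesoderm and node. In nascent and paraxial mesoderm-like cells Aplnr stood at 55.5 CPM at E7.0 (53.0 to 58.0, 2558 cells), 69.2 at E7.25 (64.2 to 74.5, 1181 cells), then 74.8 at E7.5 (71.2 to 78.5, 2280 cells). In epiblast-like cells it stood at 2.65 (2.12 to 3.28), 2.88 (2.04 to 3.96) and 2.36 CPM (1.82 to 3.01). The mesoderm level was 20.9-fold, 24.0-fold and 31.7-fold that of epiblast (log2 4.39, 4.59 and 4.99), where 4.03%, 3.96% and 4.49% of genes were at least 2-fold higher. Apela went the other way, with a log2 ratio of mesoderm to epiblast of -3.91 (-4.26 to -3.57), -1.63 (-2.04 to -1.23) and -2.98 (-3.34 to -2.65), where 4.55%, 3.7% and 4.01% of genes were at least 2-fold lower. Over other ways of filtering and clustering the ratio stayed between 3.04 and 5.71 for Aplnr and below 0 for Apela. For Apln it was -1.18, 0.38 and -1.32, and its sign turned with the clustering at E7.25 and E7.5. After thinning, 0.96%, 1.35% and 1.34% of epiblast-like cells held an Aplnr UMI. These shares are low, and above the 0.52%, 0.78% and 0.74% of visceral endoderm-like cells, thinned to the same depth, which are not known for the receptor. At resolution 2, epiblast-like cluster 2 of E7.5 held Aplnr at 1.15 CPM (0.66 to 1.87). Epiblast-like cluster 6 of that library, with more Nkx1-2, held 4.10 CPM (2.89 to 5.65). Whether the epiblast UMIs are expression or free RNA was not tested.

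Among all cells the receptor was also higher with more T. By T bins of 0, 1, 2 to 3 and 4 or more UMIs, Aplnr was 14.2, 31.0, 37.9 and 48.4 CPM at E7.0 and 14.9, 31.1, 46.7 and 66.2 at E7.5. Within mesoderm, cluster 7 of E7.5, with Tbx6, Dll1 and Aldh1a2, held 86.9 CPM (81.7 to 92.3) and cluster 6, with Tcf15, Foxc2 and Myl7, held 57.1 (51.9 to 62.7). In the 51 paraxial mesoderm-like cells of E7.5 with 4 or more Aplnr UMIs, T was 537 CPM against 247 in the rest, Hand1 was 3.74 (3 UMIs) against 76.8, and Id1 was 79.9 against 137. In the 58 nascent mesoderm-like cells of E7.0 with as many, T was 266 against 124 CPM. Both sets were deeper than the rest, at 14185 against 8694 and 22473 against 11833 UMIs. Extraembryonic mesoderm-like cells held 31.4, 30.4 and 28.8 CPM, and their 3 intervals overlapped. At resolution 2 the haemato-endothelial-like cells of E7.25 held 79.0 CPM (61.7 to 99.7).

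Node and notochord-like cells also held the receptor, at 42.7 CPM at E7.0 (33.2 to 54.0), 95.0 at E7.25 (67.9 to 129), then 109 at E7.5 (91.6 to 128). E7.5 was log2 1.35 (0.92 to 1.78) above E7.0, where 4.44% of genes were at least 2-fold higher. Apln in the same cells was log2 1.11 (0.64 to 1.59) above E7.0, and Apela was log2 -0.45 (-0.69 to -0.22). Node-like cells thus held both ligands and the receptor at high levels at E7.25 and E7.5. At E7.0 the 36 node-like cells with 4 or more Apela UMIs were not the same as the rest: T was 143 CPM (110 to 182) against 695 (648 to 745), Foxj1 was 209 against 520, and the epiblast gene Utf1 was 317 against 83.5. Primitive streak-like cells at E7.0 and caudal epiblast-like cells at E7.5 held Aplnr at 21.7 and 28.5 CPM, between epiblast and mesoderm. Anterior streak-like cells of cluster 9, a site of Apela, also held Aplnr, at 20.6, 18.2 and 22.9 CPM in order of stage. At resolution 2 the anterior streak-like cells held Aplnr at 22.5, 43.8 (23 UMIs) and 52.5 CPM (46 UMIs), with Apela at 31.4, 32.3 and 28.5. Of the 27 thinned cells with Aplnr and Apela at E7.0, 6 were anterior streak-like.

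T and Mesp1, read as UMIs in the same thinned cell, gave the 3 genes different patterns without any clustering. Apela was found in 17.6% of cells with T and no Mesp1 at E7.0, in 3.41% of cells with both and in 2.37% of cells with Mesp1 alone. At E7.25 the shares were 12.3%, 4.27% and 3.77%, and at E7.5 they were 15.8%, 6.20% and 3.91%. Apln in the same order of cells was found in 14.9%, 12.4% and 4.10% at E7.0, 20.3%, 11.9% and 2.73% at E7.25, and 26.7%, 14.5% and 3.76% at E7.5. Aplnr was most frequent in the cells with both, with 13.9%, 22.4% and 18.2% at E7.0, 17.04%, 27.0% and 18.6% at E7.25, and 20.5%, 26.6% and 19.1% at E7.5. Cells with neither T nor Mesp1 held Aplnr in 2.31%, 3.51% and 3.75% of cases. In each library, then, Apela was most frequent in cells with T alone, Aplnr in cells with both, and both ligands were rare in cells with Mesp1 alone.

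**Figure D2:**
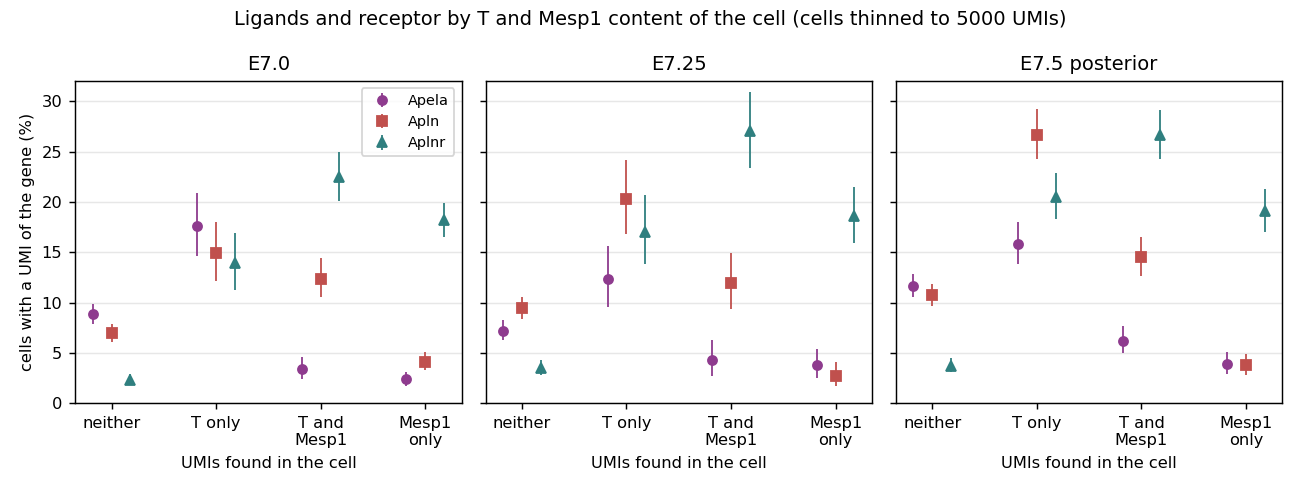
Share of cells (%) with a UMI of Apela, Apln or Aplnr among cells with a UMI of neither T nor Mesp1, of T only, of both and of Mesp1 only, in each library (panels); cells were thinned to 5000 UMIs and lines are exact 95% binomial intervals. At E7.0 Apela is at 17.6% with T only and 3.41% with both, where Aplnr is at 13.9% and 22.4%.

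Sox2, a gene of the epiblast, and Mesp1 ran in opposite directions with the receptor. At E7.0 Aplnr was 31.1 CPM in cells with no Sox2 UMI, 9.58 with 1, 3.48 with 2 to 3 and 1.31 with 4 or more. At E7.5 the bins held 38.1, 13.1, 3.94 and 1.16 CPM. By Mesp1, the same bins held 7.31, 7.85, 25.5 and 48.7 CPM at E7.0 and 16.2, 25.8, 45.1 and 65.7 CPM at E7.5. By Apela the differences were smaller: 26.9, 16.8, 14.4 and 8.52 CPM (5.40 to 12.8 in the last bin) at E7.0, and 34.1, 24.2, 21.9 and 13.04 CPM (8.80 to 18.6) at E7.5. At E7.25 the bins by Apela held 26.2, 18.6, 13.2 and 24.5 CPM, the last from 14 UMIs in 39 cells (13.4 to 41.1). By Apln there was no steady order: 26.2, 19.5, 18.8 and 25.1 CPM at E7.0, and 32.4, 26.9, 33.0 and 43.7 CPM (32.9 to 56.8) at E7.5.

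**Figure D3:**
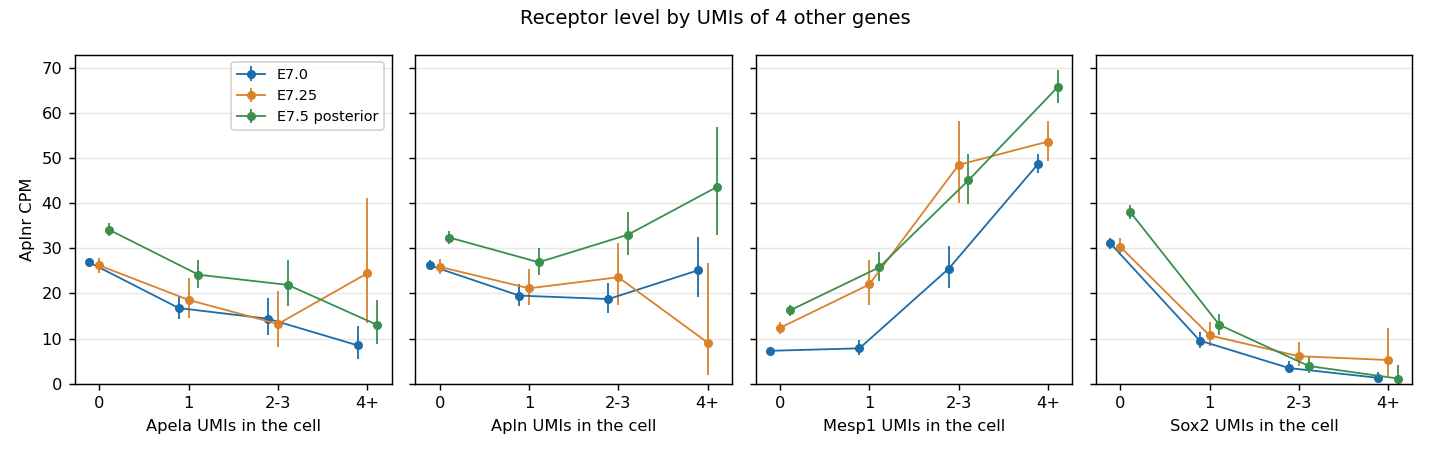
Aplnr level (CPM) in cells with 0, 1, 2 to 3 and 4 or more UMIs of Apela, Apln, Mesp1 or Sox2 (panels) in each library (colours), with exact 95% Poisson intervals. From the lowest to the highest bin at E7.0, Aplnr goes from 31.1 to 1.31 CPM by Sox2, from 7.31 to 48.7 by Mesp1 and from 26.9 to 8.52 by Apela, with no steady order by Apln.

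The receptor and Apela shared fewer cells than independence gives, and the gap was partial. At E7.0, 27 thinned cells held both, against 54.7 expected, a ratio of 0.493 (0.325 to 0.718). At E7.25 it was 21 cells and 0.653 (0.404 to 0.999), and at E7.5 it was 76 cells and 0.779 (0.614 to 0.975). With no thinning the E7.0 ratio was 0.770, so its size rests on the depth used, and it stayed below 1. Read against all genes in 1% or more of cells, 5.41%, 6.89% and 3.39% met Aplnr at 0.5 times the expected number or less, and 5.21%, 12.6% and 12.8% of genes had a lower ratio with Aplnr than Apela did. Apela thus stood low among all genes in its meetings with the receptor, lowest in rank at E7.0. The difference between stages was not tested, and the 3 intervals overlap. For scale, Mesp1 and Sox2, genes of mesoderm and epiblast, gave 0.25, 0.28 and 0.31, and Aplnr with the endoderm gene Ttr gave 0.43, 0.56 and 0.40. Aplnr with Mesp1, found in the same cells, gave 1.77, 2.11 and 1.65.

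Apln and the receptor were closer to independent. The ratios were 0.764 (0.562 to 1.02), 0.737 (0.511 to 1.03) and 0.947 (0.785 to 1.13), from 47, 34 and 120 cells. All 3 intervals include 1. Most receptor cells held no ligand UMI: 91.5% of Aplnr cells at E7.0, 89.6% at E7.25, then 82.5% at E7.5 had neither Apela nor Apln. The shares over all thinned cells were 86.6%, 84.5% and 79.4%, so receptor cells stood only a little above them. Cells with all 3 genes numbered 6, 6 and 24. At this depth most cells that make a gene this low show no UMI of it, so these shares limit captured UMIs and not cells that make the peptide.

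**Figure D4:**
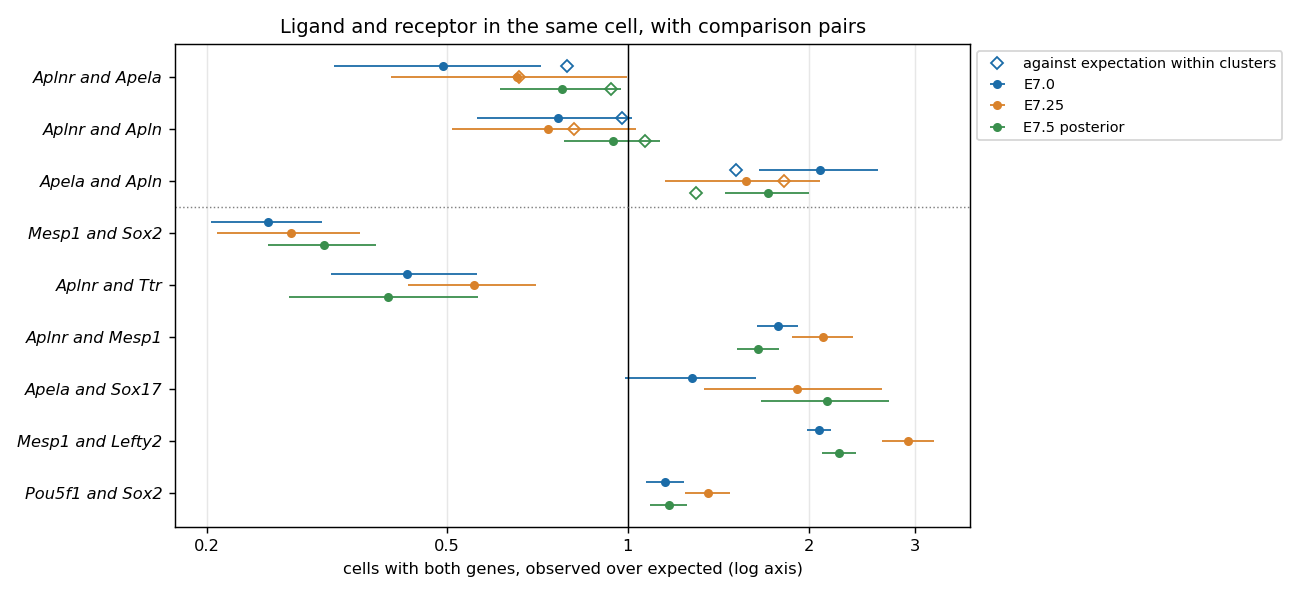
Number of thinned cells with UMIs of both genes over the number expected from their shares (log axis) for each pair and library, with exact 95% intervals of the count; open diamonds give the ratio against an expectation summed within clusters. Aplnr with Apela lies at 0.493, 0.653 and 0.779, between the separate pair Mesp1 and Sox2 at 0.25 to 0.31 and the value of 1 for independence, and Apela with Apln lies above 1 in each library.

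The ratio was nearer to 1 within clusters at E7.0 and E7.5, and not at E7.25. Against an expectation summed within clusters, Aplnr with Apela gave 0.794 (0.523 to 1.15) at E7.0, 0.659 (0.408 to 1.01) at E7.25 and 0.938 (0.739 to 1.17) at E7.5, and each interval includes 1. Aplnr with Apln gave 0.979, 0.815 and 1.07. In caudal epiblast-like cells of E7.5, the class where all 3 genes were present at 39.2, 89.2 and 28.5 CPM for Apela, Apln and Aplnr, the receptor met Apela at 1.23 times (0.85 to 1.72) and Apln at 1.19 times (0.93 to 1.51) the expected number. This class held 34 of the 76 cells with Aplnr and Apela, and 70 of the 120 with Aplnr and Apln. In node-like cells of E7.5 the ratios were 0.640 (0.350 to 1.07) with Apela and 0.814 (0.455 to 1.34) with Apln, from 14 and 15 cells. In nascent and paraxial mesoderm-like cells 5, 5 and 11 cells held Aplnr and Apela, at ratios of 1.03, 0.571 and 0.957 whose intervals include 1. In extraembryonic mesoderm-like cells the receptor met Apela at 0.509 times (0.165 to 1.19) the expected number at E7.25, from 5 cells. At E7.5 it was 0.723 times (0.197 to 1.85), from 4 cells. In epiblast-like cells, whose few receptor UMIs may be expression or free RNA, the ratios lay above 1 in every library. With Apela they were 1.52 (0.31 to 4.44), 3.38 (1.10 to 7.88) and 2.31 (0.93 to 4.76), from 3, 5 and 7 cells. With Apln they were 3.18 (1.03 to 7.42), 2.86 (0.93 to 6.67) and 2.54 (1.16 to 4.83), from 5, 5 and 9 cells.

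**Figure D5:**
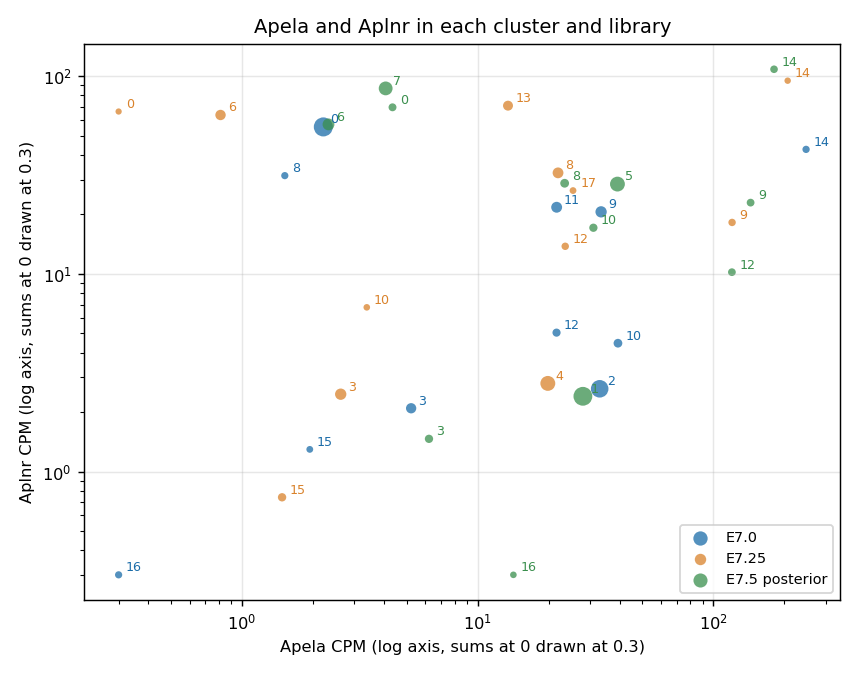
Aplnr against Apela, both in CPM on log axes, in each cluster and library of at least 50 cells; points are numbered by cluster, sized by number of cells and coloured by library. Mesoderm clusters 0, 6 and 7 lie high in Aplnr and low in Apela, epiblast clusters 1, 2 and 4 the reverse, and the node-like cluster 14 is high in both. Others also hold both in their summed UMIs, which need not lie in the same cells: at E7.5 cluster 5 (Aplnr 28.5, Apela 39.2 CPM) and cluster 8 (28.8 and 23.4). At E7.25 cluster 8 lies at 32.5 and 21.9, and cluster 13 at 71.0 and 13.5.

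Over the 35 sums of a cluster in a library, the 3 genes were nearly unrelated to each other, with Pearson's r of log2(CPM + 10) of 0.20 for Apela with Aplnr, 0.25 for Apela with Apln and 0.19 for Apln with Aplnr. The sums share libraries and clusters, so r is a description. Of 6678 genes, those most like Aplnr were Ifitm1 (r 0.89), Igdcc3 (0.89), Tenm4 (0.88), Notch1 (0.85), Adam19 (0.84) and Col13a1 (0.83). Those most like Apela were Samd3 (0.84), Jund (0.82), Larp7 (0.82), Chrd (0.82), Nrep (0.81) and Pfn2 (0.81). Those most like Apln were Sema6a (0.83), Rtl8a (0.81), Rtl8b (0.75), Lhpp (0.74), Epha1 (0.73) and Gstt2 (0.68).

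Other genes of the pathway were read from 4 lists, counted in mesoderm-like against epiblast-like cells, where 4.03%, 3.96% and 4.49% of all genes were at least 2-fold higher and 4.55%, 3.7% and 4.01% lower. Of 14 genes that carry the signal inside the cell (G protein subunits, arrestins and receptor kinases), 6, 10 and 8 reached 20 CPM in the libraries in order of stage. By the 2-fold mark 0 were higher and 1 was lower, Arrb2, which codes for a beta-arrestin, at E7.25 with 9.55 against 21.7 CPM. The medians of log2 ratio were -0.11, 0.08 and 0.14, against 0.02, 0.02 and 0.01 for all genes. Gnai2, a subunit of the inhibitory G protein through which the receptor is known to signal, was 272 against 472 CPM at E7.0.

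Of 8 genes that cut or break down such peptides, 1 reached 20 CPM in either class of cells, Pcsk5, a proprotein convertase, at E7.25 with 20.4 CPM in mesoderm against 0.53. Of 12 other receptors and ligands of migrating cells, 2 of 5, 2 of 6 and 3 of 6 measured members were at least 2-fold higher in mesoderm and 1, 2 and 2 were lower. Pdgfra and Kdr, receptors for PDGF and VEGF, were higher in each library, at 55.4 against 1.50 and 53.6 against 1.03 CPM at E7.0. Some ligands ran the other way: Pdgfa, which codes for a ligand of Pdgfra, was 7.73 CPM in mesoderm and 34.6 in epiblast at E7.5, and the chemokine gene Cxcl12 was 1.44 against 36.7 at E7.0. Of 11 genes of the mesoderm transition, 7 of 10, 7 of 10 and 6 of 9 were higher, against 4.03%, 3.96% and 4.49% of all genes, and 1 was lower each time, Cdh1, the epithelial cadherin, at 8.86 against 72.7 CPM at E7.0. Snai1, Cdh2 and Fn1, which code for a repressor of Cdh1, N-cadherin and fibronectin, were among those higher in every library. Clusters were named from markers that include Mesp1, Snai1 and Eomes, so the last list is in part what defines these cells. Between whole libraries 0 of 7, 8 and 7 measured members of the signal list differed by 2-fold. Of all measured genes, 2.79% were at least 2-fold higher and 1.52% lower at E7.25 than at E7.0. The shares were 1.01% and 3.13% at E7.5 against E7.25, and 0.588% and 0.986% at E7.5 against E7.0. With so few members, a count of 0 does not set the list apart from other genes.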

How the data were processed

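Each library was deposited as a matrix of UMI counts per gene and cell barcode, made with Cell Ranger 6.0.1 per the submitters' processing notes. The counts are whole numbers, not normalized, and which genome build was used is not given in the sources used here. Members and gene lists were chosen with earlier results of these data known. Barcodes with at least 1000 detected genes and at most 10% mitochondrial UMIs were kept: 7941, 5194 and 8438 in order of stage. Scrublet scores marked 111, 193 and 570 doublets, which were removed. Its automatic threshold marked 0 at E7.5, so there the highest scores were taken. The kept cells hold 105687845, 44567147 and 78775837 UMIs. Cells were clustered without the 3 genes in scanpy 1.11.5 (2000 variable genes, 30 components, 15 neighbours, Leiden resolution 1, leidenalg 0.10.2), and a cluster was named from marker lists when at least 3 markers were found. Cluster 10 stayed unnamed (695 cells, median 3886 UMIs).

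CPM is the summed UMIs of a gene over all UMIs of the same cells. Intervals are exact Poisson for CPM, conditional binomial for ratios and Clopper-Pearson for shares, at 95%. For shares and pairs, cells were thinned to 5000 UMIs, which left out 613, 507 and 751 shallower cells. A gene was counted as higher or lower at 2-fold, among genes at 20 CPM or more in at least 1 side, and classes needed 50 cells in a library. Named genes are the 3 members, members of the lists, and the 6 genes most correlated with each over cluster sums, among genes at 30 CPM or more in at least 1 sum. That choice skipped mitochondrial, ribosomal protein, Gm, Rik and Y-linked genes and Xist. The genes of cells with 4 or more UMIs of a member, the finer clusters and the values without cluster 17 were added after seeing the data. The steps were tested on simulated data. Alternatives were other filters, thinning depths, clusterings and TMM factors (edgeR 4.0.16).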

Additional observations from a re-analysis of the deposited data

Results flagged for a closer look

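In 4 cases the same pair of libraries gave opposite directions in different kinds of cells, with both counting intervals apart from 0. None of these differences was tested, since each library is 1 sample. For Apela at E7.25 against E7.0, the log2 ratio was 1.85 in anterior streak-like cells and -0.90 in visceral endoderm-like cells, the latter from 16 and 40 UMIs. For Apela at E7.5 against E7.0 it was 2.47 in cluster 12 and -0.45 in node and notochord-like cells. Of the 400 Apela UMIs in the latter at E7.0, 301 lay in 36 of the 158 cells. For Apela at E7.5 against E7.25 it was 2.35 in cluster 12 and -0.86 in nascent and paraxial mesoderm-like cells. Of the 65 Apela UMIs in the latter at E7.25, 61 came from cluster 13, which has 11 cells at E7.5, while cluster 6 went from 0.81 to 2.33 CPM. For Apln at E7.5 against E7.25 it was 0.25 in epiblast-like cells and -1.78 in extraembryonic mesoderm-like cells. Of the 67 Apln UMIs in the latter at E7.25, 54 came from the 104 very deep cells of cluster 17, and cluster 8 alone held 2.28 CPM there against 2.26 at E7.5.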

How the results depend on the processing

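No paired analysis was possible because each stage is 1 library. Of 463 values under alternatives, 312 stayed within the counting interval of the reported value (list medians: within 0.2) and 147 moved further. Another 4, all of reported ratios of at least 2-fold, changed sign. Among the 312 and the 147, 17 lay on the other side of 0, or of 1 for shared cells, from a reported value under 2-fold or a shared-cell ratio. The cause was not tested.

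Between whole libraries, TMM factors gave log2 ratios of -0.36 (Apela), 0.23 (Apln) and -0.19 (Aplnr) for E7.25 against E7.0, 0.55 (Apln) and 0.45 (Aplnr) for E7.5 against E7.25, and 0.45, 0.78 and 0.26 for E7.5 against E7.0. With at most 5% mitochondrial UMIs, Apela was 0.54 for E7.5 against E7.25 and 0.45 for E7.5 against E7.0, and Apln was 0.26 for E7.25 against E7.0 and 0.65 for E7.5 against E7.25. Without very deep and very low mitochondrial cells, Apln was 0.55 and 0.99 for E7.25 and E7.5 against E7.0. No gene of the 3 reached 2-fold in these settings.

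For shared cells, no thinning gave 0.770 for Aplnr with Apela and 1.08 for Aplnr with Apln at E7.0. Thinning to 3000 UMIs gave 1.14 and 1.20 for Aplnr with Apln at E7.0 and E7.5 and 1.54 for Apela with Apln at E7.0. With 2 or more raw UMIs of each gene, Aplnr with Apln gave 1.31, 1.25 and 1.43, and Apela with Apln 2.70, 3.21 and 2.32. Aplnr with Apela stayed below 1 in every alternative run.

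For mesoderm against epiblast, Apela at E7.0 was -3.51 at resolution 2, -3.08 with 50 components, -3.22 with 2000 detected genes and -2.83 with doublets kept. Apela at E7.25 was -2.93 at resolution 0.5, -0.59 at resolution 2 and -0.86 with doublets kept, and at E7.5 -1.38 with 50 components, -1.63 with 2000 genes and -0.88 with doublets kept. Apln at E7.0 was -1.69 and -0.79 at resolutions 0.5 and 2, -0.46 with 50 components, -0.85 with 2000 genes and -0.31 with doublets kept. Apln at E7.25 was -1.17 and 1.27 at resolutions 0.5 and 2, -1.52 with each library clustered alone and 0.10 with doublets kept. Apln at E7.5 was -1.66 and -0.73 at those resolutions and -0.73 with each library alone, and changed sign to 0.054 with 50 components, 0.36 with 2000 genes and 0.45 with doublets kept. Aplnr at E7.0 was 3.04 and 4.76 at those resolutions, 3.68 with 50 components, 3.60 with 2000 genes and 3.74 with doublets kept. Aplnr at E7.25 was 3.95 with each library alone, and at E7.5 3.85 with 50 components, 5.71 with 2000 genes and 4.01 with doublets kept.

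Apela in anterior streak-like cells at E7.25 against E7.0 was 1.52 and 0.043 at resolutions 0.5 and 2 and 1.01 with 2000 genes. At E7.5 against E7.0 it was 1.82, -0.14 and 1.28. At resolution 2 the endoderm cells form a cluster of their own.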
